A study of Homo sapiens with 12 samples.

Results

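The interleukin 6 family, with its ligand IL11 in the lead, was followed in MDA-MB-231 cells given GM-4-53, paclitaxel or GNE-140. The family was listed as 10 genes, the ligands IL11, IL6, LIF, CLCF1 and CTF1 and the receptor chains IL6ST, IL6R, LIFR, OSMR and IL11RA. A gene was taken from the array features that carry its symbol and no other, and where a gene had several such features the one with the highest mean over the 12 arrays was used. By that rule 9 of the 10 genes had a feature, among 22392 genes with a feature of their own, and no member had more than 1. CLCF1 had no feature that carries its symbol and no other in the annotation used here and was not analysed. IL11 was chosen because it was already known to be high under GM-4-53 in these arrays, so its values in GM-4-53 cells are given as a description, without a test.

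MDA-MB-231 is an established human triple-negative breast cancer (TNBC) line, and its RNA was measured on Affymetrix Human Gene 2.1 ST whole-transcript arrays. All cells were harvested at 36 h. The 4 control arrays came from untreated cells, 3 arrays from cells given GM-4-53 (5 µg/mL, a cytostatic tetrahydroisoquinoline, spelled GM453 in the labels), 2 from cells given paclitaxel (1 µg/mL, a drug that stabilizes microtubules) and 3 from cells given GNE-140 (50 µM, an inhibitor of lactate dehydrogenase A and B). The paper states DMSO as the solvent of GM-4-53 and paclitaxel and names none for GNE-140. The controls are described as untreated, so an effect of a solvent and an effect of a compound cannot be told apart. Every group is 1 cell line, and nothing says that replicates came from separate cultures, so p-values cover the spread between arrays. The doses differ between compounds, and comparisons between compounds are between these treatments and not between compounds at a matched dose.

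Cytokines of this family signal through a shared transmembrane chain, gp130, which is encoded by IL6ST. IL6 and IL11 first bind their own receptors, IL6R and IL11RA, while LIF and cardiotrophin (CTF1) use gp130 with LIFR, and oncostatin M uses gp130 with OSMR or LIFR. The assembled receptor activates JAK kinases and the transcription factor STAT3, which induces its own inhibitor SOCS3. In breast cancer the family is known for work on tumour inflammation, and IL11 for its part in the bone-destroying metastases that sublines of MDA-MB-231 form in mice.

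The deposited values are log2 signals, with array medians from 2.64 to 2.7 in 8 arrays, from 2.78 to 2.82 in the GNE-140 arrays and 2.82 in control replicate 4. Control replicate 4 also correlated less with the other controls (mean r = 0.951 over all features) than with the GNE-140 arrays (mean r = 0.978), and its label gives another catalogue number for the cells than the other 11 labels do. Control replicate 3 correlated about as well with the GNE-140 arrays (mean r = 0.965) as with the other controls (mean r = 0.964). Calls that changed without control replicate 4 are also given without it. Genes known to be high in this line were bright in the controls (VIM 7.88, CD44 7.69, AXL 9.34 and CAV1 7.07, mean log2 signals, n = 4) except ZEB1 at 4.69, and the hormone receptor genes that define the triple-negative class were dim (ESR1 2.43 and PGR 1.86). Of the luminal and epithelial genes that this line is known to lack or hold low, CDH1 was at 4.48, GATA3 at 4.72 and EPCAM at 5.98, above the array medians. Of the fibroblast, leukocyte and endothelial markers, DCN, LUM, PTPRC and CD3E lay between 1.45 and 1.58 in the controls, COL1A1 was the brightest at 3.51, and none of the 9 measured markers of these cell types passed the test in any treatment against controls.

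IL11 lies on the minus strand of chromosome 19. The 250 bases before its annotated start (RefSeq, GRCh38.p14, chr19:55370464-55370713, minus strand) are shown because IL11 is the member with the widest range of values. The capitals mark a match to the AP-1 motif TGANTCA, searched on both strands, which starts 96 bases before the annotated start and which 6.57% of 35116 promoter windows of that length hold.
IL11 promoter: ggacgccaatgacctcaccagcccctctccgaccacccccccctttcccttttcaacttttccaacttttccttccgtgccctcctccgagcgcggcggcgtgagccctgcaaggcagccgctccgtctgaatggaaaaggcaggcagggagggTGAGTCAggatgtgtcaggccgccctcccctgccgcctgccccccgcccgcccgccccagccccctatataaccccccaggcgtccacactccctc
The match is a description of these letters and was not tested as a binding site in these cells.

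IL11 had log2 signals of 4.45, 4.56, 3.93 and 4.81 in the 4 controls and of 6.78, 6.93 and 6.74 in the 3 GM-4-53 arrays. It had 5.32 and 5.39 under paclitaxel and 4.76, 4.99 and 4.85 under GNE-140. The GM-4-53 arrays were the highest of the 12 and lay close together, the paclitaxel arrays came next, and the GNE-140 arrays overlapped with control replicate 4. The mean was 4.44 ± 0.37 (SD, n = 4) in controls and 6.82 ± 0.10 (SD, n = 3) with GM-4-53, a log2 difference of 2.38 (SE 0.18), or 5.21-fold. That was the highest difference of the 22392 genes, the contrast for which IL11 was chosen. Leaving out each array in turn gave log2 differences from 2.21 to 2.51. RNA was taken from whole cultures, so more expressing cells and more RNA per cell cannot be told apart.

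**Figure D1:**
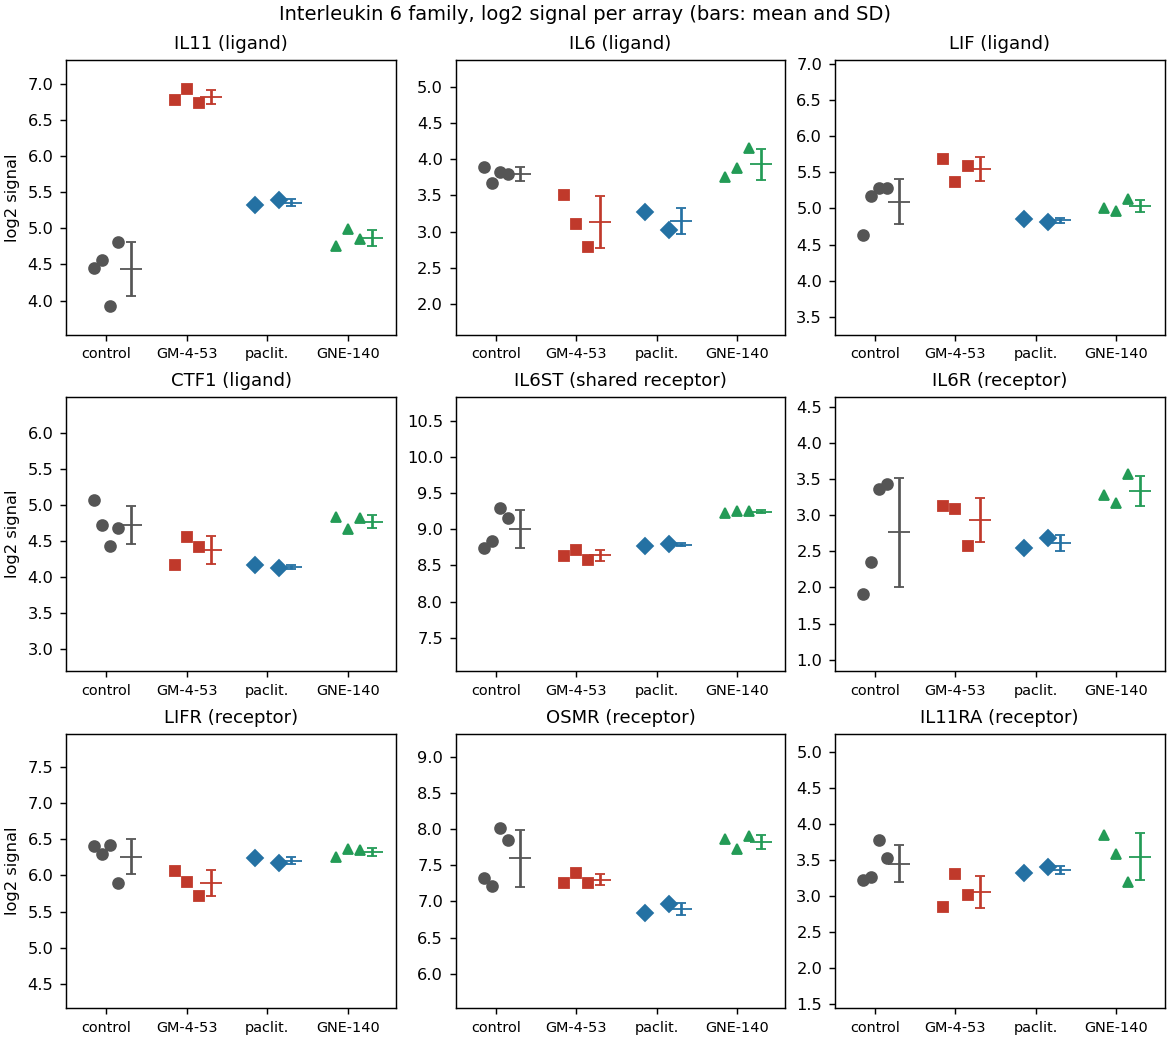
Log2 signal (vertical axis, the same span in each panel) of the 9 measured family members in each array, by group, with the group mean and SD as bars. IL11 lay at 6.74 or more in the 3 GM-4-53 arrays and at 5.39 or less in the other arrays, and no other member showed a gap of that size.

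The order of the IL11 means was control (4.44), GNE-140 (4.87 ± 0.12, SD, n = 3), paclitaxel (5.35 ± 0.05, SD, n = 2) and GM-4-53. Paclitaxel arrays exceeded all controls, with a log2 difference of 0.92 (SE 0.20, 95% interval 0.47 to 1.36, 1.89-fold), but the limma adjusted p over all features was 0.0704. Without control replicate 4 the difference was 1.04 and the limma adjusted p was 0.0338. With that array kept, the limma adjusted p was 0.0195 with array weights and 0.0467 with dim features left out, so the call depends on the fit. GNE-140 differed from controls by 0.43 (SE 0.18, limma adjusted p = 0.257) and from paclitaxel by 0.49 in the direction of higher paclitaxel values (limma adjusted p = 0.218), so these neighbours in the order did not differ past the threshold. GM-4-53 exceeded paclitaxel by 1.46 (SE 0.21) and GNE-140 by 1.95 (SE 0.19), values that belong to the pattern for which IL11 was chosen.

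IL6, the inflammatory cytokine after which the family is named, lies on the plus strand of chromosome 7. The 250 bases before its start (RefSeq, GRCh38.p14, chr7:22726950-22727199, plus strand) are shown. IL6 was taken as the only ligand lower between treatments at a limma adjusted p under 0.05, in GM-4-53 against GNE-140. IL11 was higher there, and CTF1 was also lower (log2 difference -0.39) without passing that threshold. The capitals mark, in order, a match to the C/EBP motif TTGCNNAA, 155 bases before the start, and a match to the NF-kB motif GGGANTTTC, 73 bases before it.
IL6 promoter: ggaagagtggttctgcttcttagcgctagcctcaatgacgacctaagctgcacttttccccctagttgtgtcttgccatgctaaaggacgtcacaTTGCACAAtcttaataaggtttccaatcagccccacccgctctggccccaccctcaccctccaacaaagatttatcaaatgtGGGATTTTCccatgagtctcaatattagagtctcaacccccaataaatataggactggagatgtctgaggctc
On both strands, 9.05% of promoter windows hold the first motif and 1.12% hold the second. No match to the AP-1 letters above was found in this window.

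IL6 had log2 signals of 3.89, 3.67, 3.83 and 3.80 in controls, 3.50, 3.11 and 2.79 under GM-4-53, 3.27 and 3.02 under paclitaxel, and 3.75, 3.88 and 4.16 under GNE-140. All GM-4-53 and paclitaxel arrays were below all controls, while the GNE-140 arrays overlapped with the controls. IL6 was dim in every group, from 2.79 to 4.16, with its lowest values near the array medians. The log2 difference from controls was -0.66 (SE 0.17, limma adjusted p = 0.0777) for GM-4-53 and -0.65 (limma adjusted p = 0.176) for paclitaxel, so neither passed. Without GM-4-53 replicate 1 the former was -0.85 (limma adjusted p = 0.0456). Between GM-4-53 and paclitaxel IL6 differed by -0.01, with a 95% interval from -0.46 to 0.43.

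GM-4-53 cells held less IL6 RNA than GNE-140 cells, with a log2 difference of -0.80 (SE 0.18, 1.74-fold lower, limma adjusted p = 0.0202). For paclitaxel against GNE-140 the difference was -0.78 (SE 0.20, limma adjusted p = 0.0535), and it passed without control replicate 4 (limma adjusted p = 0.0386), without GM-4-53 replicate 1 or 3, and with dim features left out (0.0352), the 2 groups alone (0.0223) or array weights (0.00746). The IL6 call between GM-4-53 and GNE-140 was lost when any of 4 arrays was left out, GM-4-53 replicates 2 and 3 and GNE-140 replicates 2 and 3, with limma adjusted p from 0.0580 to 0.0837, and with the methods' t-test (adjusted p = 0.121). A term for what control replicate 4 shares with the GNE-140 arrays was added after the data were seen. With it the same difference was still -0.80, and no call is read from it because the term rests on that control alone.

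LIF, leukemia inhibitory factor, had log2 signals of 4.63, 5.17, 5.29 and 5.28 in controls, 5.68, 5.36 and 5.59 under GM-4-53, 4.86 and 4.81 under paclitaxel and 5.01, 4.97 and 5.13 under GNE-140. The GM-4-53 arrays were above all others, and control replicate 1 was the lowest of the 12. The log2 difference of GM-4-53 from controls was 0.45 (SE 0.16, limma adjusted p = 0.222), from paclitaxel 0.71 (limma adjusted p = 0.408) and from GNE-140 0.51 (limma adjusted p = 0.0869), none past the threshold. Without control replicate 1 the last of these had a limma adjusted p of 0.0290. It also passed with the 2 groups alone (limma adjusted p = 0.0308), array weights (0.0239) and median centring (0.0372).

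CTF1, which encodes cardiotrophin, had 5.07, 4.72, 4.43 and 4.68 in controls, 4.16, 4.55 and 4.41 under GM-4-53, 4.16 and 4.12 under paclitaxel and 4.83, 4.66 and 4.81 under GNE-140 (log2 signals). The paclitaxel arrays were below every control and GNE-140 array, and the GM-4-53 arrays overlapped with the controls. The log2 difference from controls was -0.58 for paclitaxel (SE 0.18, limma adjusted p = 0.184) and -0.35 for GM-4-53 (limma adjusted p = 0.338).

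Among the receptors, IL6ST, the gp130 chain that all these ligands share, had log2 signals of 8.74, 8.84, 9.30 and 9.16 in controls, 8.63, 8.72 and 8.57 under GM-4-53, 8.77 and 8.80 under paclitaxel and 9.22, 9.26 and 9.26 under GNE-140. The GM-4-53 arrays were the lowest of all, the GNE-140 arrays lay with the higher pair of controls, replicates 3 and 4, and the paclitaxel arrays with the lower pair. Against controls the log2 difference was -0.37 with GM-4-53 (SE 0.14, limma adjusted p = 0.250), -0.23 with paclitaxel and 0.24 with GNE-140. IL6ST was lower in GM-4-53 than in GNE-140 cells, by a log2 difference of -0.61 (SE 0.15, 1.52-fold lower, limma adjusted p = 0.0286). That call was lost when any GM-4-53 or GNE-140 array was left out (limma adjusted p from 0.0576 to 0.0976). With the term for control replicate 4 and the GNE-140 arrays the difference was -0.40.

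OSMR, the oncostatin M receptor chain, had log2 signals of 7.32, 7.21, 8.01 and 7.85 in controls, 7.26, 7.39 and 7.26 under GM-4-53, 6.84 and 6.96 under paclitaxel and 7.86, 7.72 and 7.90 under GNE-140. The paclitaxel arrays were the lowest of the 12, and the GNE-140 arrays lay with control replicates 3 and 4. Against controls the log2 difference was -0.70 with paclitaxel (SE 0.21, limma adjusted p = 0.179) and -0.29 with GM-4-53 (limma adjusted p = 0.524). OSMR was lower in paclitaxel than in GNE-140 cells, by a log2 difference of -0.93 (SE 0.22, 1.9-fold lower, limma adjusted p = 0.0377). It no longer passed when any GM-4-53 or GNE-140 array was left out (limma adjusted p from 0.0508 to 0.116). With 1 paclitaxel array left out the difference was -0.87 or -0.99, and with the added term it was -0.60.

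LIFR, the chain that pairs with gp130 to bind LIF, had 6.41, 6.30, 6.42 and 5.90 in controls, 6.06, 5.91 and 5.71 under GM-4-53, 6.24 and 6.17 under paclitaxel and 6.26, 6.36 and 6.35 under GNE-140 (log2 signals). Control replicate 4 fell among the GM-4-53 arrays, and the other arrays lay above them. The log2 difference of GM-4-53 was -0.37 from controls (limma adjusted p = 0.271) and -0.43 from GNE-140 (limma adjusted p = 0.100), the latter past the threshold only without control replicate 4 (limma adjusted p = 0.0313) among the arrays left out in turn.

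The ligand-specific receptors were dim, near the array medians. IL11RA, the receptor of IL11, ranged from 3.22 to 3.78 in controls, from 2.85 to 3.30 under GM-4-53, from 3.32 to 3.4 under paclitaxel and from 3.20 to 3.85 under GNE-140 (log2 signals), and the GM-4-53 range overlapped with the controls. Its log2 difference under GM-4-53, where IL11 was highest, was -0.39 (SE 0.19, 95% interval -0.80 to 0.01, limma adjusted p = 0.374). IL6R had 1.91, 2.35, 3.36 and 3.43 in controls, a wider spread than in any treated group (SD 0.76 against 0.31 at most), and its treated arrays all lay within that span except GNE-140 replicate 3 at 3.57. The interval of its difference was accordingly wide, from -0.55 to 0.89 for GM-4-53 against controls.

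Each array drawn against the control mean shows how the members moved together. IL6ST, IL6R, OSMR and IL11RA were all lower in control replicates 1 and 2 than in replicates 3 and 4, as was the ligand LIF. CTF1 was higher in replicates 1 and 2 than in 3 and 4, while LIFR, IL11 and IL6 did not follow that split. For each member the gap between the outermost control and its neighbour was divided by the range of the 4 controls. No member passed the critical ratio for 4 arrays. LIF came closest at 0.808, with control replicate 1 outermost, and then LIFR at 0.756, with control replicate 4 outermost. With only 4 arrays this ratio cannot show that no control array stood apart.

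**Figure D2:**
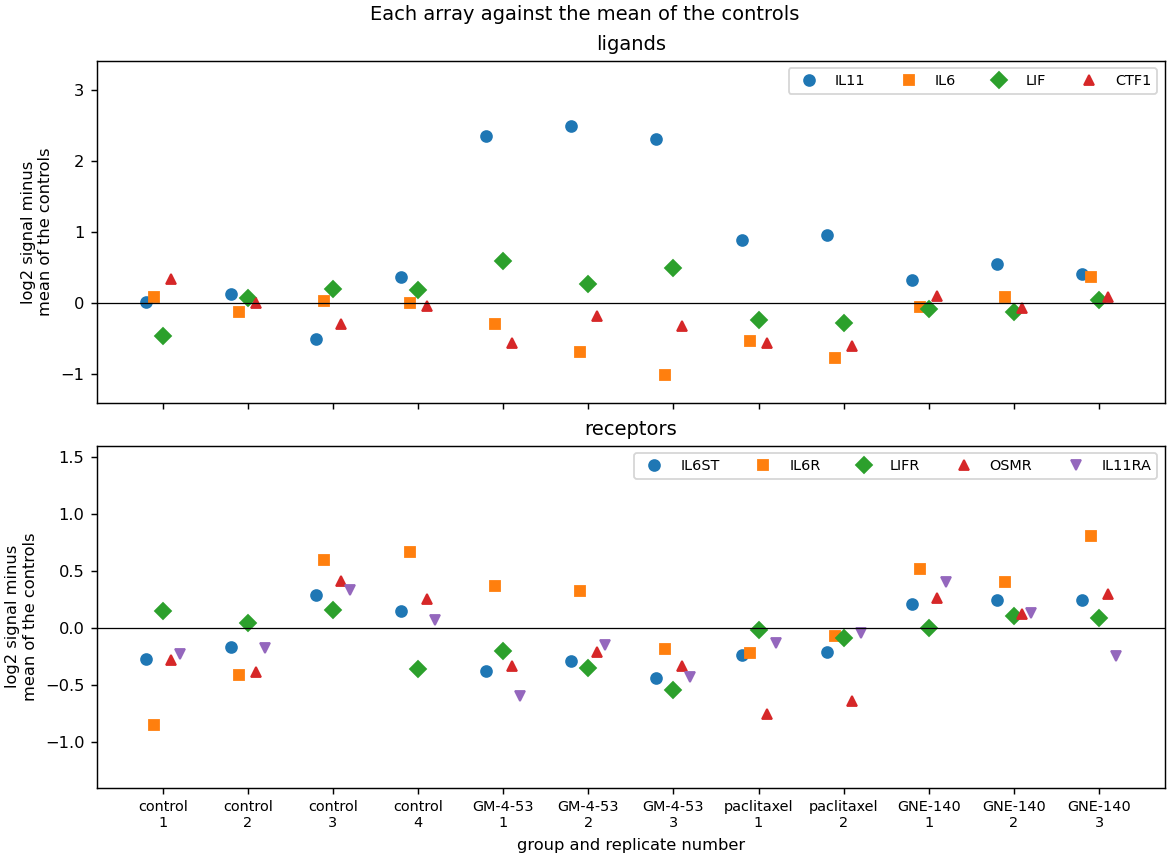
Log2 signal of each array minus the mean of the 4 controls (vertical axis), for the ligands (top) and the receptors (bottom), by group and replicate (horizontal axis, replicates in no order). IL11 stood 2.31 or more above the control mean in the GM-4-53 arrays, and the receptors IL6ST, OSMR, IL6R and IL11RA lay lower in control replicates 1 and 2 than in 3 and 4.

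Across the family, a member was counted as called at a limma adjusted p under 0.05 over all 53617 features, with no fold limit. In simulated data 14.9% of 1.5-fold changes were recovered for GM-4-53 and for GNE-140 against controls, and 8.96% for paclitaxel. The simulation changed 200 randomly drawn features with normal noise, so these shares are a rough guide and not those of the members. An uncalled member may therefore still differ. In GM-4-53 against controls 1.84% of features were called. IL11 was chosen on this contrast and is left out of the count. Of the other 8 members 0 were called. At an unadjusted p under 0.05 by limma 1 was higher and 4 were lower, and the methods' t-test called 0. The share of all features at that unadjusted threshold was not taken. Such unadjusted counts, here and below, therefore have no background to be set against. The 8 had a median log2 difference of -0.36 against 0.01 over all features, and 6 of them were below 0. The arrays of the 2 groups did not overlap for 3 of the 8 (LIF higher, IL6 and IL6ST lower), where 11.0% of all features did not overlap in either direction.

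In paclitaxel against controls 0.657% of features and 0 of 9 members were called. At an unadjusted p under 0.05 by limma 1 member was higher (IL11) and 3 were lower (IL6, CTF1 and OSMR), and 0 were called by the methods' t-test. The 8 members other than IL11 were all below 0, with a median log2 difference of -0.24 against 0.00 over all features. Arrays did not overlap for 4 of the 9, against 19.4% of all features.

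In GNE-140 against controls 1.26% of features and 0 of 9 members were called, with IL11 alone at an unadjusted p under 0.05 by limma and 0 by the methods' t-test. The median of the 8 other members was 0.11, and no member's arrays were clear of the controls, against 15.3% of all features. Of these 8, 7 were above 0, but with each array centred on its median CTF1, LIFR and IL11RA turned below 0 (-0.07, -0.05 and -0.02). The 3 comparisons with controls share the same 4 control arrays.

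**Figure D3:**
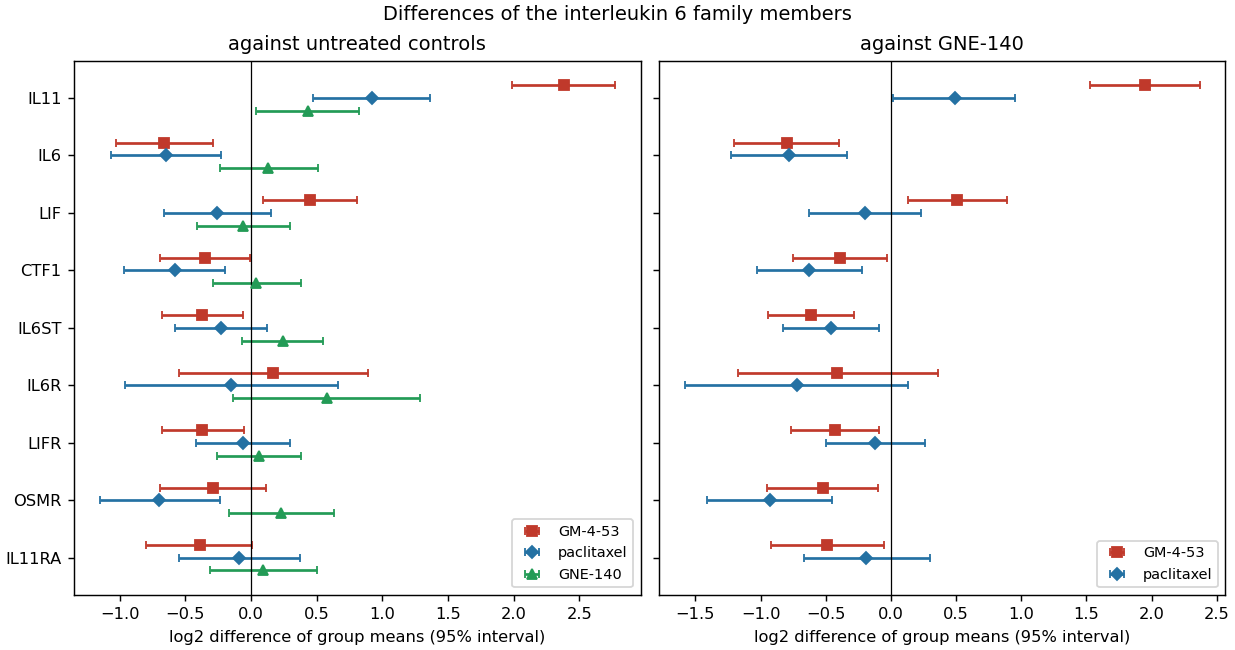
Log2 differences of group means (horizontal axis) with 95% intervals from limma for the 9 members, each treatment against untreated controls (left) and GM-4-53 and paclitaxel against GNE-140 (right). The IL11 difference under GM-4-53 was 2.38 against controls, and the others with controls lay between -0.70 and 0.92.

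Between treatments, GM-4-53 against paclitaxel gave 0 called among the 8 members other than IL11, with 0.0242% of features called. Of these 8, LIF was higher with GM-4-53 at an unadjusted limma p under 0.05, and the methods' t-test called 0. In GM-4-53 against GNE-140 9.56% of features were called, and 2 of the 8 members other than IL11, IL6 and IL6ST, both lower. All but LIF of the 8 other members were lower with GM-4-53, with a median log2 difference of -0.46 against 0.00 over all features, and 7 of the 8 had arrays that did not overlap, against 41.7% of all features. In paclitaxel against GNE-140 4.06% of features and 1 member, OSMR, were called. All 8 members other than IL11 were below 0 there (median -0.55 against 0.00 over all features), and 7 of them did not overlap, against 53.8% of all features. GNE-140 arrays also had the higher array medians given above. Centring each array on its median left every member difference from GNE-140 on its side of 0, with OSMR at -0.82 for paclitaxel, while IL6ST against GM-4-53 moved to -0.48 (limma adjusted p = 0.0558). With the term for control replicate 4 and the GNE-140 arrays, IL6R turned above 0 against GNE-140 (0.49 for GM-4-53 and 0.17 for paclitaxel), as did LIF for paclitaxel (0.05).

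The ligands and receptors differed in how they were spread. Of the 4 ligands, GM-4-53 had 2 above controls (IL11 and LIF) and 2 below (IL6 and CTF1), while of the 5 receptors 4 were below and IL6R was above. With paclitaxel IL11 was the only ligand above controls and all 5 receptors were below, by 0.06 to 0.70 on the log2 scale. With GNE-140 all 5 receptors were above, by 0.06 to 0.58, though LIFR (-0.05) and IL11RA (-0.02) were below with median-centred arrays and IL6R (-0.09) and OSMR (-0.02) with the term for control replicate 4. No receptor difference from controls was called, with limma adjusted p from 0.179 to 0.942, and whether ligands and receptors differ as groups was not tested.

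The genes most like IL11 were taken as those with the highest Pearson correlation with it over the 12 arrays, among the 22391 other genes. They were ADAMTS6, a secreted metalloproteinase (r = 0.96), NRK, a kinase (0.95), MIR1193, a microRNA gene (0.94), ARAP1, an adaptor with GTPase-activating domains (0.93), DENND1A, a Rab exchange factor (0.92), IGHMBP2, a helicase (0.92), KCTD5, an adaptor of ubiquitin ligases (0.91) and RFTN1, a lipid raft protein (0.91). All 8 were highest in the 3 GM-4-53 arrays. MIR1193 was dim, with group means from 1.12 to 1.86, below the array medians. NRK and ADAMTS6 had means below the array medians in every group but GM-4-53. ADAMTS6 went from 2.32 in controls (mean log2 signal) to 3.87 under GM-4-53, 2.62 under paclitaxel and 2.23 under GNE-140, so the step under paclitaxel was 0.30 where that of IL11 was 0.92.

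The genes most opposite to IL11 were CAT, which encodes catalase (r = -0.98), ETV1, an ETS transcription factor (-0.97), ID1, an inhibitor of basic helix-loop-helix factors and a target of BMP signaling (-0.97) and HEXIM1, an inhibitor of transcription elongation (-0.97). All 4 had the group order of IL11 reversed, as their choice by correlation favours. ID1 had mean log2 signals of 7.93 in controls, 7.52 with GNE-140, 6.76 with paclitaxel and 5.36 with GM-4-53. Its differences from controls were -0.40, -1.17 and -2.57, beside 0.43, 0.92 and 2.38 for IL11. Within the family the correlations with IL11 were 0.59 for LIF, -0.72 for IL6, -0.78 for LIFR, -0.70 for IL6ST, -0.65 for IL11RA and -0.01 for IL6R. These correlations are descriptions over arrays that share 4 groups and 1 normalization, and the 3 GM-4-53 arrays form 1 end of each.

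**Figure D4:**
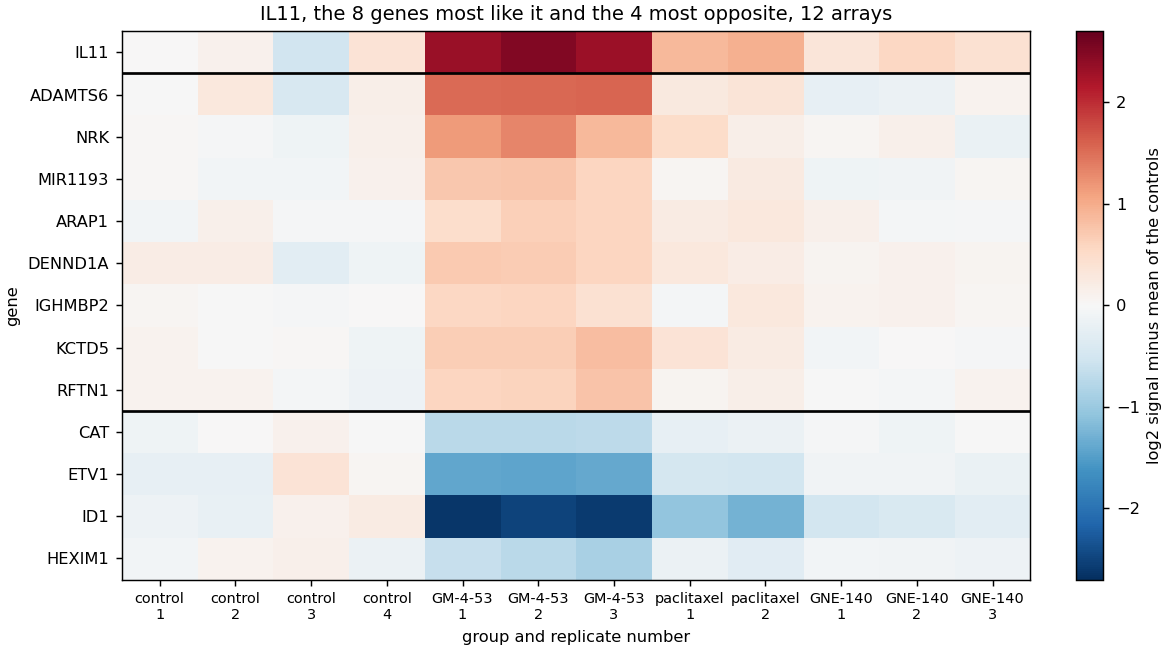
Log2 signal minus the mean of the controls (colour) in each of the 12 arrays (columns) for IL11, the 8 genes most correlated with it and the 4 most opposite (rows). IL11 and ID1 ran in opposite directions in the GM-4-53 arrays, from 2.31 to 2.49 for IL11 and from -2.62 to -2.5 for ID1, with paclitaxel arrays between these and the controls for both.

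Downstream of the receptors, the RNAs of the signaling parts were compared with the controls. Of 12 measured kinases, STATs and adaptors 0 were called in either direction under any treatment. At an unadjusted p under 0.05 by limma the numbers were 2, 0 and 1 for GM-4-53, paclitaxel and GNE-140, and the methods' t-test called 0. The shares of all features called in these comparisons were 1.84%, 0.657% and 1.26%. STAT3, the main transcription factor of the pathway, had log2 differences of -0.09, -0.15 and -0.09, with 95% intervals from -0.32 to 0.13 for GM-4-53 and GNE-140 and from -0.41 to 0.10 for paclitaxel. The other ligands and receptors of the family, 7 measured genes that include OSM and CNTFR, had 0 called, with 0, 0 and 1 at an unadjusted p under 0.05, as did the 4 proteases and carriers of receptor shedding (2, 0 and 0), among them ADAM17 at -0.39 with GM-4-53 (limma adjusted p = 0.301).

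Of 11 inhibitors 1 was called, PIAS3, an inhibitor of activated STAT3, which fell with GM-4-53 from 6.17 to 5.45 (log2 difference -0.72, SE 0.14, limma adjusted p = 0.0251). The call was lost without control replicate 3 or any GM-4-53 array (limma adjusted p up to 0.101). Of all features 1.02% fell with GM-4-53. SOCS3, the feedback inhibitor that STAT3 induces, had log2 differences of -0.49 (GM-4-53), -0.30 (paclitaxel) and -0.62 (GNE-140), and none was called (limma adjusted p = 0.180, 0.591 and 0.0995).

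Of 26 genes known as STAT3 or acute phase targets, 1 rose and 3 fell with GM-4-53, 0 rose and 2 fell with paclitaxel, and 1 rose and 3 fell with GNE-140. The methods' t-test called 0 genes of any list against controls, and it called 6, 0 and 60 of all features in these comparisons. The median log2 differences of the list were -0.35, -0.37 and -0.03, against 0.01, 0.00 and 0.00 over all features. Over all features 0.815% rose and 1.02% fell with GM-4-53, 0.500% and 0.157% with paclitaxel, and 0.414% and 0.843% with GNE-140. JUNB, an AP-1 transcription factor, fell from 5.72 ± 0.17 (SD, n = 4) to 4.64 ± 0.07 (SD, n = 3) with GM-4-53 (log2 difference -1.08, limma adjusted p = 0.00360) and to 4.77 with paclitaxel (-0.96, limma adjusted p = 0.0235). The GM-4-53 call held whichever array was left out, and the paclitaxel call was lost without either paclitaxel array.

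MYC, the growth-promoting transcription factor, fell with paclitaxel (-1.06, limma adjusted p = 0.00985) and GNE-140 (-1.18, limma adjusted p = 0.00118), the latter whichever array was left out and the former only with both paclitaxel arrays in the fit. The mucin MUC1 (-1.27) and the NF-kB cofactor BCL3 (-0.92) fell with GM-4-53 and BIRC5, which encodes survivin, rose by 0.84, calls near the threshold (limma adjusted p from 0.0463 to 0.0498) that were lost in at least 10 of the 12 fits with an array left out. Without control replicate 4 the limma adjusted p was 0.0732 for MUC1, 0.0533 for BCL3 and 0.0655 for BIRC5. With GNE-140 the transcription factor CEBPD rose by 0.76 (limma adjusted p = 0.0483), and BCL2L1, an inhibitor of apoptosis (-0.56), and the acute phase protein SERPINA3 (-0.71) fell. The BCL2L1 and SERPINA3 calls were lost whenever a GNE-140 array was left out, and that of CEBPD in 11 of the 12 such fits (limma adjusted p up to 0.210). With the term for control replicate 4 the differences were 0.43 for CEBPD, -0.56 for BCL2L1 and -0.55 for SERPINA3. That term sets the GNE-140 arrays against control replicate 4 alone, so no call is read from it.

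Of 12 known regulators of IL11 transcription, from TGF-beta, SMAD and AP-1 genes to RUNX2, 0 rose and 2 fell with each treatment, the falls being JUNB again and RUNX2 with GM-4-53, JUND and JUNB with paclitaxel, and TGFB2 and FOSL1 with GNE-140. The median log2 differences were -0.34, -0.17 and 0.05, against 0.01, 0.00 and 0.00 over all features, of which 1.02%, 0.157% and 0.843% fell. JUND, an AP-1 factor, fell with paclitaxel from 6.35 to 4.87 (log2 difference -1.47, SE 0.16, limma adjusted p = 0.00541, up to 0.13 with a paclitaxel array left out). RUNX2, a bone-lineage transcription factor, fell with GM-4-53 by 0.71 on the log2 scale (limma adjusted p = 0.0176), a call lost without GM-4-53 replicate 1 or 3. The ligand TGFB2 fell with GNE-140 by 1.43 on the log2 scale (limma adjusted p = 0.00289), whichever array was left out, and the AP-1 factor FOSL1 by 0.65 (limma adjusted p = 0.0223, up to 0.13 with an array left out).

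Of 7 known inducers of IL6 transcription, NFKBIZ alone was called, an atypical inhibitor of NF-kB that promotes IL6 transcription. It had a mean log2 signal of 6.42 ± 0.09 (SD, n = 4) in controls and fell to 5.72 with GM-4-53 (-0.70, limma adjusted p = 0.00916), 5.59 with paclitaxel (-0.83, limma adjusted p = 0.0145) and 5.84 with GNE-140 (-0.59, limma adjusted p = 0.0265). IL6 itself differed from controls by -0.66, -0.65 and 0.13 in the same order of treatments, none called. The GM-4-53 call held whichever array was left out but not with the 2 groups alone (limma adjusted p = 0.114), while those for paclitaxel and GNE-140 reached limma adjusted p of 0.202 and 0.145 with an array left out. Over all features 1.84%, 0.657% and 1.26% were called in these comparisons.

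**Figure D5:**
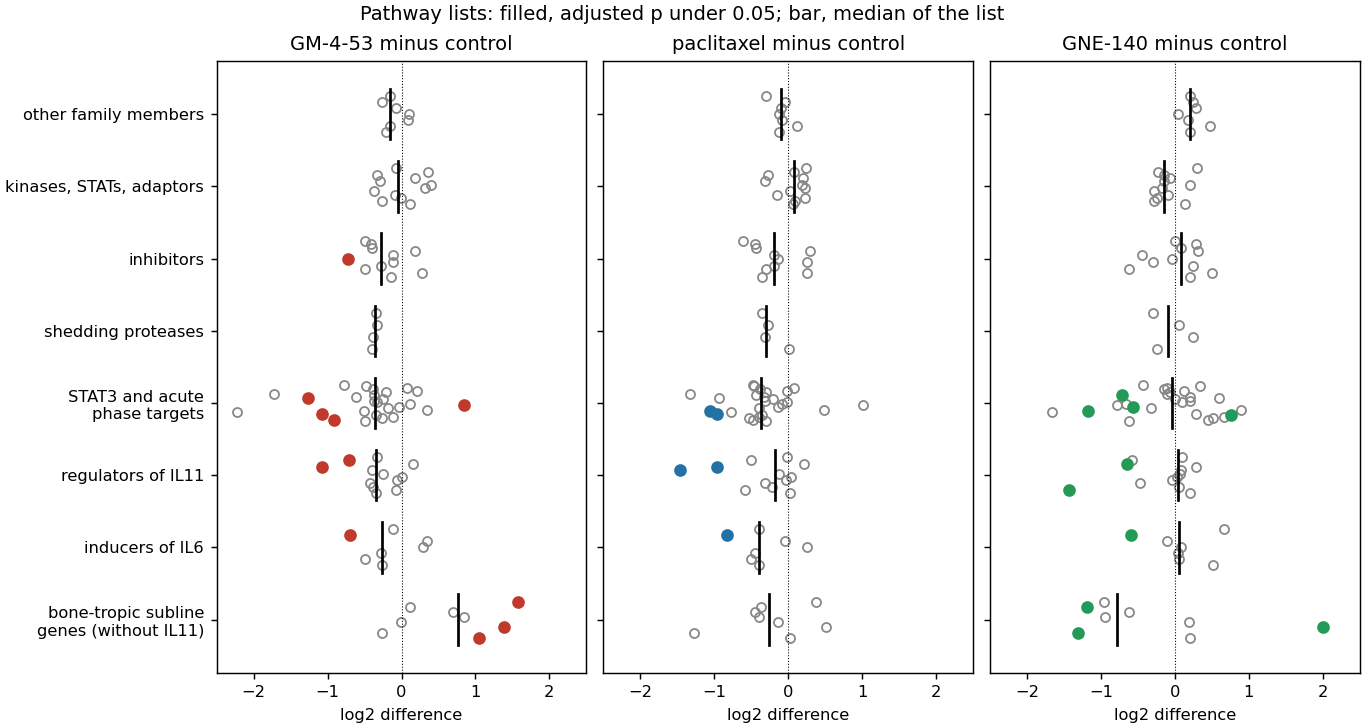
Log2 difference from controls (horizontal axis) of each measured gene of 8 lists around the family, by treatment (panels), with genes at a limma adjusted p under 0.05 filled and the list's median as a bar. None of the kinases, STATs and adaptors was called, and the called genes among the regulators of IL11 and the inducers of IL6 all lay below 0.

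The genes known to be high together with IL11 in bone-tropic sublines of MDA-MB-231 were followed without IL11. Of these 8 genes 3 rose and 0 fell with GM-4-53, 0 were called with paclitaxel (1 higher and 1 lower at an unadjusted p under 0.05 by limma), and 1 rose and 2 fell with GNE-140. Over all features 0.815% rose and 1.02% fell with GM-4-53, and 0.414% rose and 0.843% fell with GNE-140. The median log2 differences of the list were 0.77, -0.25 and -0.78, against 0.01, 0.00 and 0.00 over all features. With GM-4-53 the collagenase MMP1 rose from 6.16 to 7.55 (log2 difference 1.39, SE 0.16, limma adjusted p = 0.00189), the proteoglycan core protein SRGN by 1.57 (limma adjusted p = 0.00639) and the chemokine receptor CXCR4 by 1.05 (limma adjusted p = 0.0417). The MMP1 and SRGN calls held whichever array was left out, and that of CXCR4 was lost in 8 of 12 such fits, among them the fit without control replicate 4 (limma adjusted p = 0.0709). With the 2 groups alone SRGN had a limma adjusted p of 0.0502.

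MMP1 also rose with GNE-140, by 2.0 (limma adjusted p = 0.000254), where IL11 differed by 0.43. The matricellular protein CCN2 fell with GNE-140 by 1.31 on the log2 scale (limma adjusted p = 0.0265) and the activin antagonist FST by 1.19 (limma adjusted p = 0.00462). SRGN, which rose with GM-4-53, was at -0.96 with GNE-140 (limma adjusted p = 0.0648), and ADAMTS1 and FGF5 were above controls with GM-4-53 (0.84 and 0.70) and below with GNE-140 (-0.95 and -0.62) without being called. MMP1 and FST held whichever array was left out, and CCN2 reached a limma adjusted p of 0.138 with an array left out. With the term for control replicate 4 the FST difference was -1.26.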

How the data were processed

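RNA of MDA-MB-231 cells was measured on 12 arrays in 4 groups, assigned from the sample titles. The authors deposited log2 signals of 53617 features made with Affymetrix Expression Console, for which the sources used here name no version, normalization or summarization method. No signals were filtered or transformed before fitting, no detection calls were used, and the number of arrays limits the precision.

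A single linear model held the 12 arrays as 4 groups (lmFit and eBayes of limma 3.58.1, R 4.3.3), 6 contrasts were taken, and the Benjamini-Hochberg adjustment ran over all features of a contrast, with no correction across contrasts. Standard errors and 95% intervals are limma's moderated ones. Gene names came from the platform annotation, updated through the RefSeq gene table, and promoter sequences from RefSeq on GRCh38.p14, where 7 members had 10 windows. LIF and CTF1 were not in that table. The family members and the 13 gene lists were chosen with earlier results of these data known. From each list, genes called in any treatment against controls were named (up to 6 per comparison), and a few uncalled genes were added after their values were seen. JUNB, SOCS3, CEBPB and HIF1A stand in 2 lists each. Some of the genes listed are not reported here. The fits were tested on simulated data. Alternatives were a model of the compared groups alone, limma-trend, array weights, Student's t-test (the methods' t-test), quantile normalization, median centring, dim features left out, 1-symbol features only, the replicate block, and each array left out. A term shared by control replicate 4 and the GNE-140 arrays was added after the data had been seen. With it, every comparison with GNE-140 rests on control replicate 4 alone to place these arrays. Lost calls are then largely built in, so only the differences are given for those comparisons.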

Additional observations from a re-analysis of the deposited data

How the results depend on the processing

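No called member or list gene changed its direction under any setting tried. IL11 was chosen on its GM-4-53 values, so it is left out of the counts for the contrasts with GM-4-53. The count of called members against controls was 0 for GM-4-53, with IL6 called when dim features or GM-4-53 replicate 1 were left out. For paclitaxel it was 0, and 1 with array weights, with dim features left out and with the added term. With an array left out the paclitaxel count was 0 to 1. For GNE-140 it was 0. Between treatments it was 0 for GM-4-53 against paclitaxel under every setting. For GM-4-53 against GNE-140 it was 2, IL6 and IL6ST. LIF and OSMR were added with these groups alone, and LIF, LIFR and OSMR with array weights. Quantile normalization added LIFR, and median centring added LIF and lost IL6ST. LIF was added without control replicate 1, and LIFR without control replicate 4. The count was 0 without GM-4-53 replicate 2 or 3 or GNE-140 replicate 2 or 3. No count is read from the added term in comparisons with GNE-140, since it rests there on control replicate 4 alone. For paclitaxel against GNE-140 it was 1, with 6 for these groups alone and 5 with array weights. It was 2 there with the methods' t-test, quantile normalization or dim features left out. The same count was 0 to 2 with an array left out. For GM-4-53 against GNE-140 the methods' t-test also gave 2, with OSMR in the place of IL6. IL11 in GM-4-53 against GNE-140 was 2.45 with the added term. With the compared groups alone, the list genes that kept their calls were JUNB with GM-4-53, MYC, TGFB2 and FST with GNE-140 and MMP1 with both, and the methods' t-test kept none of them. The causes were not tested. No member had a second feature with its symbol alone, so no other such feature could be tried.

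With the replicate number as a block, the GNE-140 count against controls became 1 (IL11, 0.56, limma adjusted p = 0.0454) and the member counts of the other 5 contrasts were the same. Same-numbered arrays of different groups did not deviate together (15 pairs, r from -0.078 to 0.126, and 3 of 12 arrays correlated best with their own number), so the numbers were not taken as pairs.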
